A study of Mus musculus with 8 samples.

Results

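Chemokine receptors steer leukocytes through tissue, and 9 of them are described here in 4T1 breast tumors. The 9 genes were Cxcr6, Cxcr3, Ccr7, Cxcr2, Ccr1, Ccr2, Cx3cr1, Cxcr4 and Ackr3, of 54532 genes in the count table. They were picked by gene symbol as receptors of lymphoid and myeloid cells. The set was chosen by values of the same tumors, with the comparison of saline and mAb-DXd/IMQ tumors in view. Their differences between the groups are therefore given as a description. The edgeR thresholds were applied to them as to all genes, but nothing is read from the result.

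The tumors came from 4T1-FLuc, a mouse triple-negative breast cancer line that carries firefly luciferase, injected under the skin of female BALB/cJ mice that were 6 weeks old and had an intact immune system. The treated group, 4 tumors, received mAb-DXd/IMQ at 16 mg/kg by tail vein every 4 days for 5 courses. This conjugate is a humanized antibody to CD276 that carries DXd, an inhibitor of TOP1, and IMQ, an agonist of TLR7 and TLR8. The control group, 4 tumors, is titled saline, while its treatment label reads PBS. RNA was taken at the end of treatment from whole tumors, so cancer cells, stroma and infiltrating cells were measured together.

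Chemokine receptors are G protein-coupled receptors that read gradients of small secreted proteins, the chemokines, and turn them into directed movement. Lymphocytes, monocytes and neutrophils each carry their own set, so the receptor genes also mark which leukocytes a tissue holds. Atypical receptors such as Ackr3 bind chemokines without classical G protein signaling and remove them from the surroundings.

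Each library held 45019927 to 69582375 counts in the saline group and 34591912 to 51625237 in the treated group. At these depths 3 counts correspond to 0.0431 to 0.0867 CPM (counts relative to library size, with TMM-scaled library sizes everywhere but in this floor), a limit that covers counting error only. Saline tumor 1 lay at an end of the saline group for every receptor. It held the lowest saline value of 6 of the 9 receptors and the highest of the other 3. Its monocyte and macrophage markers summed to 1045 CPM, against 2497 to 5727 CPM in the other saline tumors. Saline tumor 2 held the highest sum, 5727 CPM. On the first principal component of all tested genes (26.0% of the variance), saline tumors 1 to 4 lay at -1.84, -61.9, -19.6 and -38.9. The mAb-DXd/IMQ tumors lay between 16.9 and 45.2, so saline tumor 2 was farthest out there. On the second (21.3%), mAb-DXd/IMQ tumor 1 lay at 73.4 and saline tumor 1 at -46.3, and the other 6 tumors between -17.3 and 13.1. Log2 fold changes of the receptors without saline tumor 1 are given beside those of all 8 tumors. Leaving out saline tumor 2 instead moved Ccr1, Ccr2 and Cx3cr1 toward 0, to -0.25, -0.31 and -0.09.

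Of the 9 genes, 4 lie on chromosome 9. In GRCm38 coordinates, the build that the file's positions follow, Cxcr6 (ENSMUSG00000048521) spans chr9:123806475-123811760, Ccr1 (ENSMUSG00000025804) chr9:123962124-123968692 and Ccr2 (ENSMUSG00000049103) chr9:124101950-124113557. Cx3cr1 (ENSMUSG00000052336) spans chr9:119901616-120069879 on the same chromosome. Chromosome 1 holds Cxcr2 (ENSMUSG00000026180, chr1:74153989-74161246), Ackr3 (ENSMUSG00000044337, chr1:90203980-90216751) and Cxcr4 (ENSMUSG00000045382, chr1:128588199-128592293). Ccr7 (ENSMUSG00000037944) lies at chr11:99144196-99155077 and Cxcr3 (ENSMUSG00000050232) at chrX:101731535-101734269.

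Cxcr6 lies inside the span of Fyco1 on the other strand, and the exons of the 2 genes share 0 bases in GENCODE M21. The span of Cx3cr1 overlaps 9 genes, Wdr48, Gorasp1, Ttc21a, Csrnp1, Xirp1, Gm49427, Gm47043, 1700019L13Rik and Gm33858. Of its 4505 exon bases, 78 are shared with Gm33858, on the other strand, and 0 with each of the other 8. Whether counting used strand was not given in the sources used here, so reads in those 78 bases are uncertain. Fyco1, an adaptor for vesicle transport, had a log2 fold change of 0.06 (SE 0.12) between mAb-DXd/IMQ and saline tumors (edgeR adjusted p = 0.828).

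Promoter sequence from RefSeq (GRCm38.p6, the C57BL/6J reference, whereas the mice were BALB/cJ) matched 8 of the 9 receptors, all but Ccr7. The letters of 7 patterns were searched on both strands of the 250 bases before each start. TGTGGT, the core of RUNX sites, occurred in 5 of the 8 (Cxcr6, Cxcr3, Ccr1, Cx3cr1 and Ackr3) and in 4614 of all 32851 promoters. GAGGAA, a core of PU.1-type sites, occurred in 3 of the 8 (Cxcr3, Cxcr2 and Ccr1) and in 23.3% of all promoters. TTGCNNAA (C/EBP-type) occurred in 1 of the 8, Ackr3, and in 9.56% of all promoters. The other 4 patterns, GAAA and GAAA with 2 bases between (interferon-stimulated), TTCNNNGAA (STAT-type), GGGA and CCC with 3 bases between (NF-kB-type) and TGANTCA (AP-1-type), occurred in 0 of the 8 and in 2.98%, 7.02%, 4.77% and 6.75% of all promoters. Matches of different patterns overlapped in 0 cases. These are matches of letters, not binding sites. The stretches next to the start of Cxcr6 (98 bases, chr9:123806377-123806474, plus strand), Ccr1 (100 bases, chr9:123968693-123968792, minus strand) and Ackr3 (100 bases, chr1:90203880-90203979, plus strand) are shown because they hold the RUNX core outside any annotated exon, and they were picked after the matches were seen. Capitals mark TGTGGT or its reverse complement ACCACA, which begins 10, 58 and 84 bases before the RefSeq start. For Cxcr6 that start lies 2 bases inside the annotated gene, and those 2 bases are not printed.
Cxcr6: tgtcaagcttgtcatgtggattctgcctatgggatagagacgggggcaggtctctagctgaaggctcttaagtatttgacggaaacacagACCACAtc
Ccr1: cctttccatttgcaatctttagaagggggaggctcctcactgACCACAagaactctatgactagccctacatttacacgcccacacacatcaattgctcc
Ackr3: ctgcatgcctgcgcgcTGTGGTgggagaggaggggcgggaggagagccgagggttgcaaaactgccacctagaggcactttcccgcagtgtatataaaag

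All 9 receptors passed the filter on low counts, and all 9 had lower fitted levels in mAb-DXd/IMQ tumors under every scaling tried. Log2 fold changes (mAb-DXd/IMQ against saline) ran from -1.25 to -0.33, with a median of -0.66. Over all 18511 tested genes the median was 0.02, and 47.4% of genes had a log2 fold change below 0. Past both thresholds, an edgeR false discovery rate of 0.05 and an absolute log2 fold change of 0.58, was 1 receptor, Cxcr6, beside 1.06% of all tested genes in either direction (197 genes) and 0.519% in the lower direction (96 genes). Upper-quartile scaling, in place of the TMM factors used throughout, put 33.5% of its calls lower, against 48.7%. Cxcr6 remained past the thresholds without saline tumor 1 or without mAb-DXd/IMQ tumor 1, and the count of receptors was 0 without any of the other 6 tumors. Because the receptors were chosen with this contrast known, nothing is read from these counts or from the call of Cxcr6. Over all tested genes, the number past the thresholds, 197 with all 8 tumors, was 111, 10 and 11 without saline tumors 2, 3 and 4 and 76, 88 and 12 without mAb-DXd/IMQ tumors 2, 3 and 4.

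**Figure D1:**
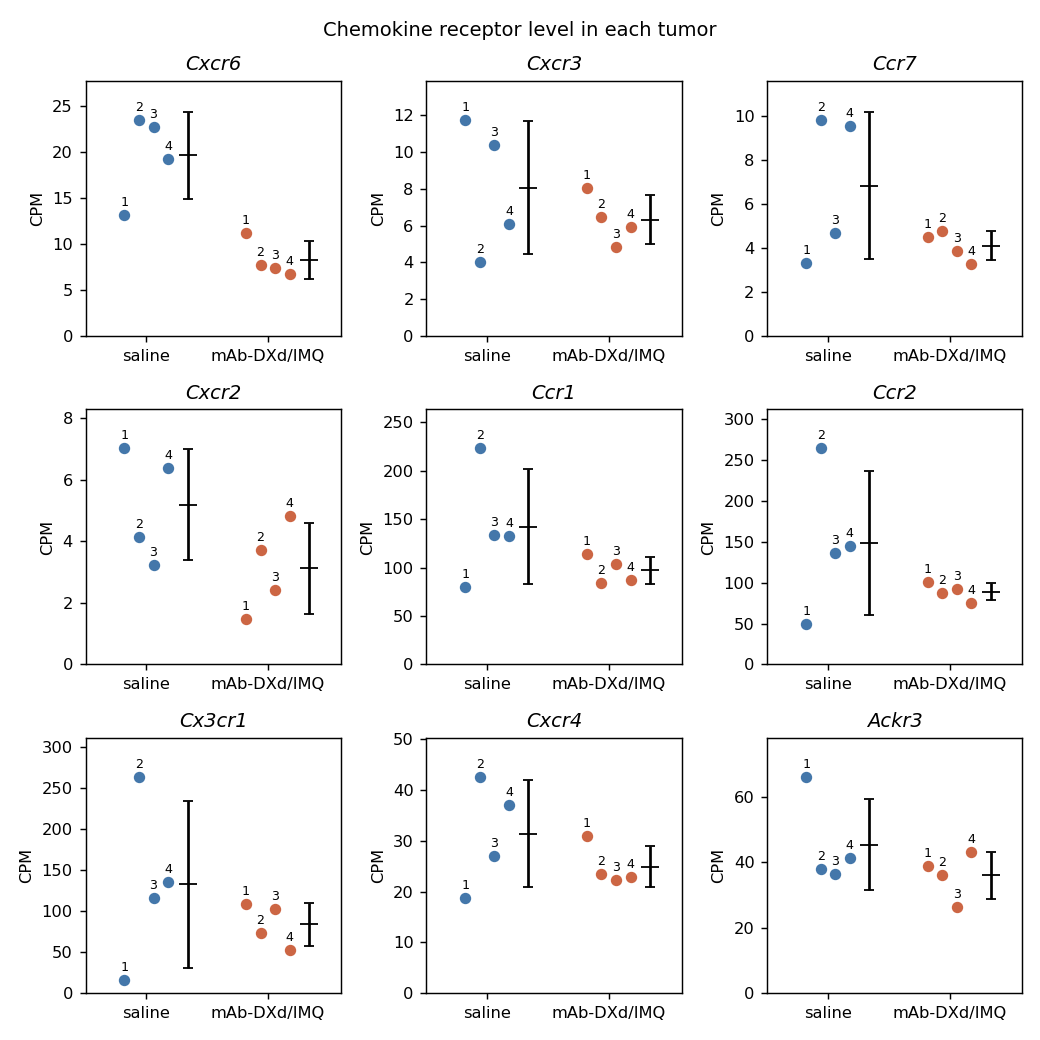
Level of each receptor (CPM, linear axes from 0) in the 4 saline and 4 mAb-DXd/IMQ tumors, with points numbered by tumor and bars giving the mean and SD (n = 4). The groups are separate for Cxcr6 and overlap for the other 8 receptors, and saline tumor 1 lies far below the other saline tumors for Cx3cr1.

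Among receptors of lymphoid cells, Cxcr6 binds Cxcl16 and is carried by resident and effector T cells and by NKT cells. Cxcr6 stood at 13.1, 23.5, 22.7 and 19.2 CPM in saline tumors 1 to 4 and at 11.2, 7.75, 7.38 and 6.72 CPM in mAb-DXd/IMQ tumors 1 to 4. The groups did not overlap, as in 7.1% of all tested genes in this direction. The means were 19.6 ± 4.72 and 8.27 ± 2.02 CPM (SD, n = 4). The fitted log2 fold change was -1.25 (SE 0.22), and -1.40 (SE 0.20) without saline tumor 1. Leaving out each tumor in turn kept the value between -1.43 and -1.15.

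Cxcr3, the receptor of the interferon-induced chemokines Cxcl9, Cxcl10 and Cxcl11 on effector T cells and NK cells, stood at 11.7, 4.04, 10.4 and 6.10 CPM in saline tumors and at 8.04, 6.45, 4.85 and 5.93 CPM in mAb-DXd/IMQ tumors. All mAb-DXd/IMQ values lay inside the saline range. Its log2 fold change was -0.35 (SE 0.32), and it was -0.12 without saline tumor 1, the tumor with the highest value, and -0.57 without saline tumor 2, the one with the lowest. Ccr7 guides naive and memory T cells and mature dendritic cells to lymph nodes. Ccr7 stood at 3.30, 9.84, 4.68 and 9.58 CPM in saline tumors and at 4.52, 4.78, 3.89 and 3.29 CPM in mAb-DXd/IMQ tumors. Saline tumors 2 and 4 were high, and the other saline tumors lay at the level of the treated group. The log2 fold change of Ccr7 was -0.73 (SE 0.34), between -0.96 without saline tumor 1 and -0.51 without saline tumor 2.

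Bulk RNA cannot tell fewer cells of a type from less RNA per cell. T cell markers, of which 10 of 10 were tested, were lower alongside Cxcr6. Their median log2 fold change was -1.03 and 3 of them, Cd4, Cd8a and Cd2, fell past both thresholds by edgeR, beside 0.519% of all tested genes in this direction. DESeq2 put 6 of them past the thresholds and limma voom 3, beside 787 and 174 of all 18511 tested genes in either direction. Cd4 had a log2 fold change of -1.91 (SE 0.25; edgeR adjusted p = 0.0201), Cd8a of -1.22 (SE 0.17; adjusted p = 0.0201) and Cd2 of -1.44 (SE 0.30; adjusted p = 0.0458). Each had all 4 mAb-DXd/IMQ tumors below all saline tumors, as did 5 of the 10 markers in all and 7.1% of all tested genes. The calls of Cd4 and Cd8a were lost without saline tumor 3, saline tumor 4 or mAb-DXd/IMQ tumor 4 (adjusted p from 0.0657 to 0.0846), and that of Cd2 without any of the 8 tumors (adjusted p from 0.0518 to 0.155) and with library totals in place of TMM scaling (adjusted p = 0.0523). The least changed markers, Lck and Cd3g, had log2 fold changes of -0.39 (adjusted p = 0.348) and -0.69 (adjusted p = 0.200). The 10 markers summed to 75.9, 120, 112 and 104 CPM in saline tumors and to 66.9, 57.2, 34.9 and 51.5 CPM in mAb-DXd/IMQ tumors, with Cd8a the most abundant, and 0 of the 10 had a mean under 1 CPM.

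Cxcr6, Cxcr3 and Ccr7 were also set against these markers in the same tumor. For Cxcr6, log2 CPM minus the mean log2 CPM of the T cell markers was 1.30 ± 0.08 in saline and 1.14 ± 0.41 in mAb-DXd/IMQ tumors (SD, n = 4), a difference of -0.16, and the groups overlapped. Treated tumors 2 and 4 (0.81 and 0.82) lay below all saline tumors, tumor 3 (1.65) above all of them and tumor 1 (1.28) within their range. The difference was -0.33 without mAb-DXd/IMQ tumor 3 and -0.05 without mAb-DXd/IMQ tumor 2. For Cxcr3 the same measure was -0.07 ± 0.98 and 0.76 ± 0.22, a difference of 0.83 that was 0.45 without saline tumor 2. For Ccr7 it was -0.32 ± 0.55 and 0.16 ± 0.41, a difference of 0.48 that was 0.29 without mAb-DXd/IMQ tumor 3. Against dendritic cell markers, Ccr7 was at -1.16 ± 0.38 and -1.28 ± 0.24, a difference of -0.12 that was -0.23 without saline tumor 1 and 0.00 without saline tumor 4. The part that T cell content had in the values of Cxcr6, Cxcr3 and Ccr7 was not tested.

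Dendritic cell markers had 9 of 9 genes tested, 0 past the thresholds by edgeR and a median log2 fold change of -0.56. Clec9a and Flt3 had the lowest values, -1.53 (adjusted p = 0.194; -1.89 and past the thresholds without saline tumor 1, adjusted p = 0.0414; -0.97 without saline tumor 2) and -1.03 (adjusted p = 0.211), and Itgax and Fscn1 the highest, 0.20 (adjusted p = 0.665) and 0.03 (adjusted p = 0.928). Their sums, led by H2-Ab1, were 916, 1251, 1175 and 1092 CPM in saline and 1011, 927, 807 and 808 CPM in mAb-DXd/IMQ tumors, and Cd209a was under 1 CPM. Of these 9, 3 lower genes had an unadjusted p under 0.05. Over all tested genes that share was 18.9% in either direction, and it stands beside every such count below. DESeq2 and limma voom put 0 of the 9 past the thresholds. Markers of NK and cytotoxic cells, which also carry Cxcr3, went the other way in median (0.31), with 0 of 6 past the thresholds by edgeR (1 by DESeq2, Prf1, and 0 by limma voom) and 1 lower and 1 higher gene at an unadjusted p under 0.05. Prf1, the pore-forming protein perforin, was at 0.95 (adjusted p = 0.104), and at 1.37 (adjusted p = 0.00335) without saline tumor 1. Ncr1 was at 0.64 (adjusted p = 0.287; 1.02 without saline tumor 4), Nkg7 at -0.33 (adjusted p = 0.279) and Klrk1 at -0.47 (adjusted p = 0.245). The 6 genes, led by Gzmb and with Klrb1c under 1 CPM, summed to 121, 58.8, 93.0 and 77.9 CPM in saline and 105, 111, 103 and 140 CPM in mAb-DXd/IMQ tumors.

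Among myeloid receptors, Ccr2 brings inflammatory monocytes from blood into tissue. Ccr2 stood at 49.0, 265, 136 and 145 CPM in saline tumors and at 101, 87.7, 92.7 and 75.2 CPM in mAb-DXd/IMQ tumors. Saline tumor 1 was the lowest of all 8 tumors and the other saline tumors were all above the treated group. The log2 fold change was -0.74 (SE 0.37), -1.03 (SE 0.22) without saline tumor 1 and -0.31 without saline tumor 2. Ccr1, carried by monocytes, macrophages and neutrophils, stood at 79.8, 223, 134 and 133 CPM in saline tumors and at 114, 84.6, 103 and 87.0 CPM in mAb-DXd/IMQ tumors. The order of the tumors was the same as for Ccr2 at both ends of the saline group. The log2 fold change of Ccr1 was -0.55 (SE 0.25), -0.75 (SE 0.19) without saline tumor 1 and -0.25 without saline tumor 2.

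Cx3cr1 is the receptor of fractalkine on patrolling monocytes and many tissue macrophages. Cx3cr1 stood at 15.2, 263, 115 and 136 CPM in saline tumors and at 108, 72.7, 102 and 52.1 CPM in mAb-DXd/IMQ tumors. The saline group spanned the whole treated range. Its log2 fold change of -0.66 (SE 0.58) was -1.04 (SE 0.30) without saline tumor 1 and -0.09 without saline tumor 2, and limma voom put it at -0.14.

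Monocyte and macrophage markers had 9 of 9 genes tested, 0 past the thresholds by edgeR (2 lower and 1 higher at an unadjusted p under 0.05; 1 by DESeq2, Mrc1, and 0 by limma voom) and a median log2 fold change of -0.24. Mrc1, a scavenging lectin of macrophages, had the lowest value, -1.37 (SE 0.31; adjusted p = 0.0574), and it passed without saline tumor 1 (-1.58; adjusted p = 0.0294), with -0.90 without saline tumor 2. Csf1r followed at -0.72 (adjusted p = 0.318; -0.31 without saline tumor 2). The highest were Ly6c2, a marker of inflammatory monocytes, at 0.79 (adjusted p = 0.184) and Cd68 at -0.04 (adjusted p = 0.941). The sums, led by Lyz2, were 1045, 5727, 2497 and 3125 CPM in saline and 3247, 2322, 2996 and 2239 CPM in mAb-DXd/IMQ tumors, and 0 of the 9 genes had a mean under 1 CPM. Against the mean of this list, Ccr1 was at 0.16 ± 0.21 in saline and -0.13 ± 0.10 in mAb-DXd/IMQ tumors (log2, SD, n = 4), Ccr2 at 0.08 ± 0.38 and -0.26 ± 0.04, and Cx3cr1 at -0.42 ± 1.14 and -0.40 ± 0.30. The difference for Cx3cr1, 0.02, was -0.53 without saline tumor 1 and 0.33 without saline tumor 2, and that for Ccr2, -0.34, was -0.20 without saline tumor 2. With the list's median in place of its mean, the differences of Ccr1 and Ccr2 turned positive (0.72 and 0.67). That median was Mrc1 in 7 of 8 tumors, so nothing is read from it. The part of these cells in the values of the 3 receptors was not tested.

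Cxcr2 drives neutrophils toward Cxcl1, Cxcl2 and Cxcl5. Cxcr2 stood at 7.01, 4.15, 3.22 and 6.38 CPM in saline tumors and at 1.49, 3.73, 2.42 and 4.83 CPM in mAb-DXd/IMQ tumors. The groups overlapped, with mAb-DXd/IMQ tumor 1 the lowest of the 8. The log2 fold change was -0.74 (SE 0.37), -0.56 (SE 0.39) without saline tumor 1, and between -1.02 without mAb-DXd/IMQ tumor 4 and -0.51 without mAb-DXd/IMQ tumor 1. Of 8 neutrophil markers 6 were tested, with a median log2 fold change of -1.27. Csf3r, the receptor of the neutrophil growth factor G-CSF, was past the thresholds at -0.80 (SE 0.16; edgeR adjusted p = 0.0402), lower in all 4 mAb-DXd/IMQ tumors than in any saline tumor. That call held without mAb-DXd/IMQ tumor 1 and was lost without any of the other 7 tumors (adjusted p from 0.0587 to 0.134). It was also lost with upper-quartile scaling (adjusted p = 0.0501) and with library totals (adjusted p = 0.0601). S100a8 and S100a9, subunits of calprotectin, were at -1.74 (adjusted p = 0.0521) and -1.81 (adjusted p = 0.0598), and both passed without saline tumor 2 (adjusted p = 0.0476 and 0.0431), while S100a9 was at -1.18 without saline tumor 1. Both also passed with no filter on low counts (edgeR adjusted p = 0.0107 and 0.0151), and S100a8 with an offset for gene length (edgeR adjusted p = 0.0432). DESeq2 put 3 neutrophil markers past the thresholds and limma voom 1. Il1r2 was at -0.10 (adjusted p = 0.883).

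The granulocyte genes Ly6g, Camp, Ngp and Retnlg were low, with means from 0.110 (Camp) to 0.629 CPM (Retnlg). Ly6g and Camp were not tested, so the median above leaves them out, and their means were higher in the treated group (0.172 against 0.122 CPM and 0.175 against 0.0450 CPM). The 8 markers summed to 242, 90.7, 106 and 136 CPM in saline and to 52.2, 62.5, 60.4 and 75.5 CPM in mAb-DXd/IMQ tumors, led by S100a9. Relative to the neutrophil markers, Cxcr2 was at -0.58 ± 0.26 in saline and -0.42 ± 0.72 in mAb-DXd/IMQ tumors (log2, SD, n = 4), and Ccr1 at 4.16 ± 1.02 and 4.64 ± 0.22. The difference for Ccr1, 0.48, was 0.01 without saline tumor 1 and 0.73 without saline tumor 2. That for Cxcr2, 0.16, was 0.46 without mAb-DXd/IMQ tumor 1 and -0.08 without mAb-DXd/IMQ tumor 4. The part of neutrophil content in the Cxcr2 values was not tested.

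**Figure D2:**
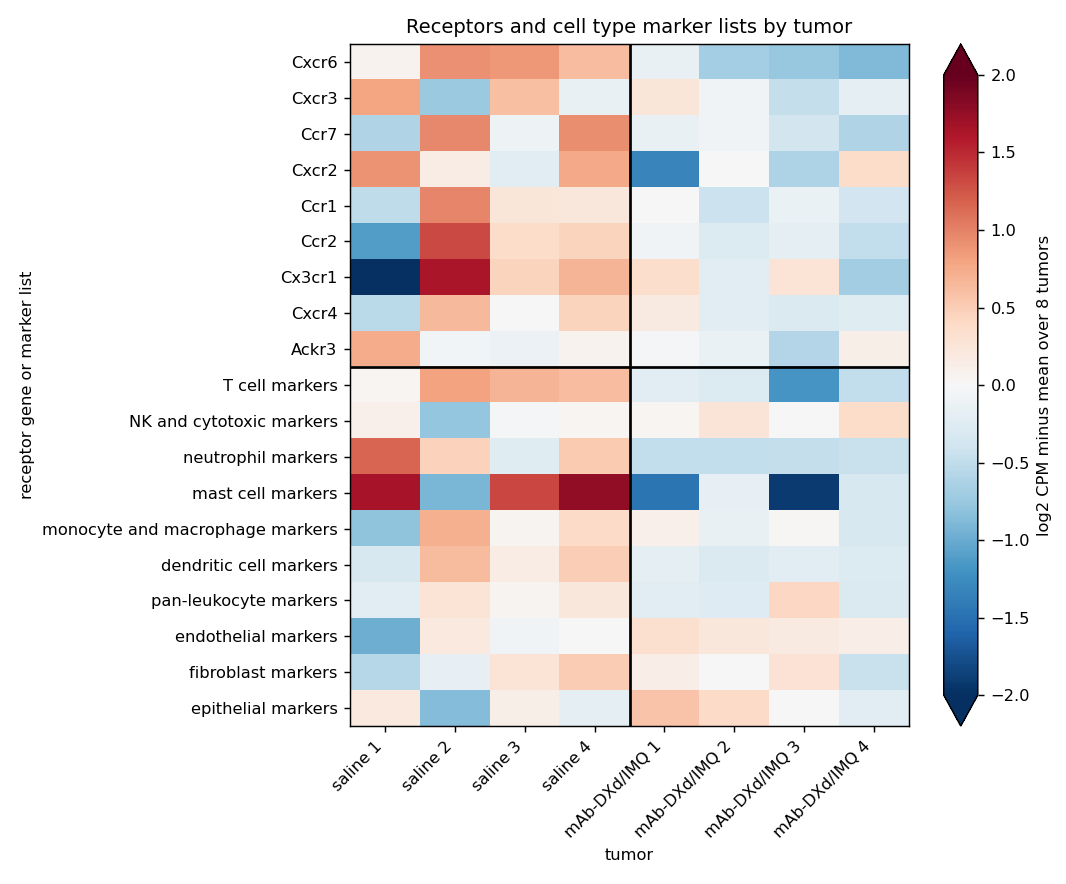
Log2 CPM of each receptor (upper rows) and mean log2 CPM of each marker list (lower rows) in the 8 tumors, each row centred on its mean, with red above and blue below that mean and colors ending at 2 units either way. The means of the tested T cell and neutrophil markers are lower in all 4 mAb-DXd/IMQ tumors than in any saline tumor. By single gene this held for 5 of 10 tested T cell and 3 of 6 tested neutrophil markers, beside 7.1% of all tested genes. Saline tumor 1 is low for Ccr2, Cx3cr1 and the monocyte and macrophage list.

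Cxcr4 and Ackr3 share the ligand Cxcl12. Cxcr4 is carried by most leukocytes, by vessel tip cells and by many cancer cells. Cxcr4 stood at 18.8, 42.6, 27.1 and 37.0 CPM in saline tumors and at 31.0, 23.5, 22.3 and 22.9 CPM in mAb-DXd/IMQ tumors. Every treated value lay inside the saline range. For Cxcr4 the log2 fold change was -0.33 (SE 0.23), -0.52 without saline tumor 1 and -0.15 without saline tumor 2. Ackr3, the scavenging receptor of Cxcl12 and Cxcl11 on vessels, stroma and tumor cells, stood at 66.2, 37.9, 36.3 and 41.3 CPM in saline tumors and at 39.0, 36.0, 26.3 and 43.1 CPM in mAb-DXd/IMQ tumors. Saline tumor 1 was far above the rest, the reverse of its place for Cxcr4. The log2 fold change of Ackr3 was -0.33 (SE 0.21), and -0.10 (SE 0.16) without saline tumor 1.

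The pan-leukocyte marker Ptprc (CD45) had a log2 fold change of -0.16 (SE 0.17; edgeR adjusted p = 0.676; -0.35 without mAb-DXd/IMQ tumor 3 and -0.08 without mAb-DXd/IMQ tumor 4), with 125, 176, 151 and 170 CPM in saline and 125, 121, 193 and 119 CPM in mAb-DXd/IMQ tumors. Relative to Ptprc, Cxcr4 was at -2.36 ± 0.30 in saline and -2.47 ± 0.46 in mAb-DXd/IMQ tumors. This difference, -0.10, ran from -0.25 without mAb-DXd/IMQ tumor 1 to 0.11 without mAb-DXd/IMQ tumor 3. Endothelial markers had 6 of 6 tested and 0 past the thresholds by edgeR (0 at an unadjusted p under 0.05; 0 by DESeq2 and by limma voom), with a median of 0.33, from 0.14 for Vwf (adjusted p = 0.800) and 0.23 for Pecam1 (adjusted p = 0.523; 0.09 without saline tumor 1) to 0.56 for Kdr (adjusted p = 0.277) and 0.67 for Tek (adjusted p = 0.292). Kdr and Tek were at 0.31 and 0.42 without mAb-DXd/IMQ tumor 3. Their sums, led by Pecam1, were 81.8, 199, 141 and 150 CPM in saline and 192, 172, 181 and 163 CPM in mAb-DXd/IMQ tumors. Relative to these markers, Cxcr4 was at 1.14 ± 0.19 in saline and 0.44 ± 0.15 in mAb-DXd/IMQ tumors, and the groups did not overlap. By CPM, 7.1% of all tested genes had groups apart in this direction, and Cxcr4 itself did not. In every other comparison of a receptor with a marker list the groups overlapped. Ackr3 was at 1.69 ± 0.92 and 0.96 ± 0.31 relative to the endothelial markers. The difference for Ackr3, -0.73, was -0.28 without saline tumor 1.

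Fibroblast markers had 6 of 6 tested, 0 past the thresholds by edgeR (1 lower at an unadjusted p under 0.05; 0 by DESeq2 and by limma voom) and a median of 0.03, with Pdgfra at -0.48 (adjusted p = 0.0679), Dcn at -0.25 (adjusted p = 0.646), Lum at 0.14 (adjusted p = 0.873) and Pdgfrb at 0.32 (adjusted p = 0.528). Led by Col1a1, they summed to 2356, 3045, 5405 and 5563 CPM in saline and 4309, 3410, 6270 and 2365 CPM in mAb-DXd/IMQ tumors. Ackr3 relative to them was at -1.86 ± 0.81 and -2.16 ± 0.59, a difference of -0.29 that was 0.09 without saline tumor 1 and -0.53 without mAb-DXd/IMQ tumor 4. Epithelial markers of the 4T1 cells had 6 of 6 tested, 0 past the thresholds by edgeR (0 at an unadjusted p under 0.05; 0 by DESeq2 and by limma voom) and a median of 0.23, from 0.01 for Krt8 (adjusted p = 0.986) and 0.02 for Cdh1 (adjusted p = 0.974) to 0.44 for Epcam (adjusted p = 0.461; 0.23 without saline tumor 2) and 1.04 for Krt14 (adjusted p = 0.270). Led by Krt18, they summed to 2738, 1828, 2657 and 2290 CPM in saline and 3617, 2957, 2325 and 2163 CPM in mAb-DXd/IMQ tumors. The part of vessels, stroma and cancer cells in the values of Cxcr4 and Ackr3 was not tested.

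**Figure D3:**
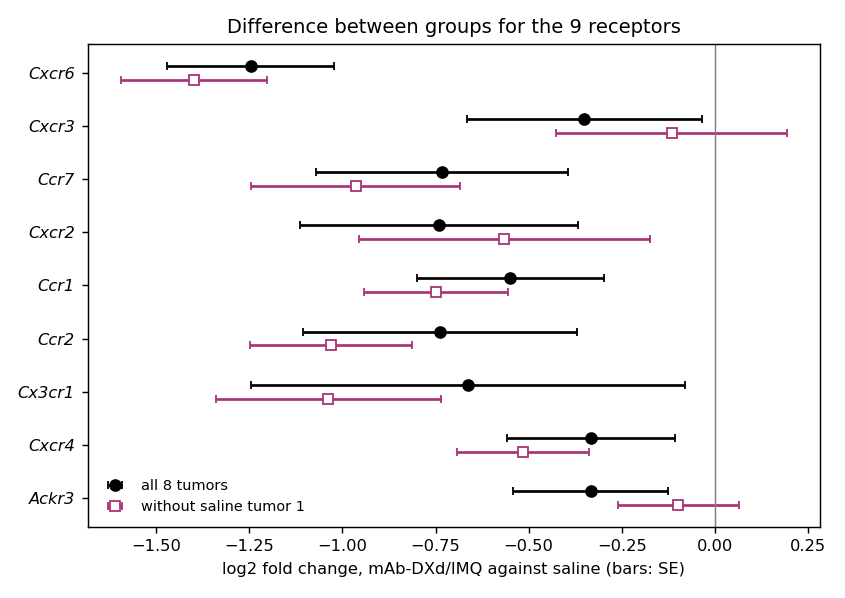
Log2 fold change of the 9 receptors between mAb-DXd/IMQ and saline tumors with all 8 tumors (filled circles) and without saline tumor 1 (open squares), with bars giving the SE. All 18 values are below 0, from -1.40 to -0.10, and those of Cxcr3, Cxcr2 and Ackr3 move toward 0 without saline tumor 1 while the other 6 move away from it. Without saline tumor 2, which is not drawn, Ccr1, Ccr2 and Cx3cr1 were at -0.25, -0.31 and -0.09.

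Levels of different genes were compared per length, as CPM divided by gene length in kilobases (RPKM). In saline tumors Ccr1 had the highest level, 50.3 ± 20.99 RPKM (SD, n = 4), followed by Cx3cr1 (29.4 ± 22.6), Ccr2 (21.97 ± 13.1), Cxcr4 (17.4 ± 5.84), Ackr3 (13.6 ± 4.18), Cxcr6 (10.2 ± 2.44), Cxcr3 (4.66 ± 2.08), Ccr7 (3.46 ± 1.69) and Cxcr2 (1.70 ± 0.59). Of the 8 pairs of neighbours in that order, 1, Cxcr6 and Cxcr3, lay apart by more than their SDs. In mAb-DXd/IMQ tumors the order was Ccr1 (34.3 ± 4.92 RPKM), Cx3cr1 (18.6 ± 5.78), Cxcr4 (13.8 ± 2.24), Ccr2 (13.2 ± 1.57), Ackr3 (10.8 ± 2.13), Cxcr6 (4.28 ± 1.05), Cxcr3 (3.65 ± 0.77), Ccr7 (2.08 ± 0.34) and Cxcr2 (1.02 ± 0.48). There 4 of the 8 pairs lay apart, and Cxcr6 and Cxcr3 no longer did. Ccr1 had the highest mean and Cxcr2 the lowest in both groups. In saline tumor 1 alone the order was different, with Cx3cr1 at 3.37, Cxcr3 at 6.78, Ackr3 at 19.8, and Cxcr2 (2.30) above Ccr7 (1.67). A mean over the other 3 saline tumors, chosen after the data were seen, put Ccr7 (4.06) above Cxcr3 (3.95) and left the rest of the order as it was.

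The other receptors of the family give the setting for these values. Of 15 genes 14 were tested, all but Ccr1l1, and edgeR put 0 past the thresholds (3 lower and 2 higher at an unadjusted p under 0.05; 2 by DESeq2, Ccr10 and Ccrl2, and 0 by limma voom). Their median log2 fold change was -0.44, with 8 lower and 6 higher. Ccrl2, which presents chemerin, was at -0.87 (SE 0.28; adjusted p = 0.128). Xcr1, the mark of cross-presenting dendritic cells, was at -1.17 (SE 0.49; adjusted p = 0.226), and at -0.53 without saline tumor 2. Chosen after its values were seen, Ccr10 was at 0.252 ± 0.02 CPM in saline and 0.799 ± 0.32 CPM in mAb-DXd/IMQ tumors (log2 fold change 1.66, SE 0.42; adjusted p = 0.0723), at 10 to 51 counts per tumor and with groups that did not overlap, as in 13.1% of all tested genes in either direction.

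Ligands of the 9 receptors did not follow their receptors in a single direction. Of 22 ligand genes 19 were tested, 9 lower and 10 higher, with a median log2 fold change of 0.01. By edgeR 0 were past the thresholds, with 3 lower and 3 higher at an unadjusted p under 0.05, beside 18.9% of all tested genes in either direction. DESeq2 put 1 past them, Ccl2, and limma voom 0.

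Cxcl16, the ligand of Cxcr6, stood at 130 ± 17.2 CPM in saline and 132 ± 17.9 CPM in mAb-DXd/IMQ tumors (log2 fold change 0.02, SE 0.13; adjusted p = 0.947), beside the -1.25 of its receptor. Ligands of Cxcr3 were at -0.28 for Cxcl9 (adjusted p = 0.300), 0.44 for Cxcl10 (adjusted p = 0.429; 0.20 without saline tumor 2) and 0.19 for Cxcl11 (adjusted p = 0.818; 0.56 without saline tumor 1 and -0.08 without saline tumor 2). For ligands of Ccr7 the counts are uncertain, since Ccl19, Ccl21a, Ccl21b and Ccl21c each have 2 entries in the table and reads that match several copies may be lost. Ccl19, Ccl21b and Ccl21c had counts at or near 0 and were not tested, and 1 entry of Ccl21a had 0.831 CPM and a log2 fold change of -0.21 (SE 1.38; adjusted p = 0.958).

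For Ccr2, Ccl2 stood at 14.7, 22.1, 17.4 and 14.2 CPM in saline and at 25.5, 21.5, 32.0 and 37.9 CPM in mAb-DXd/IMQ tumors. The values overlapped by 1 tumor of each group, and the log2 fold change was 0.77 (SE 0.20; adjusted p = 0.0748), opposite in sign to that of Ccr2. Ccl7, shared by Ccr1 and Ccr2, was at 0.51 (adjusted p = 0.153) and Ccl12 at -0.32 (adjusted p = 0.507; -0.12 without saline tumor 2). Among ligands of Ccr1, Ccl5 was at 0.61 (adjusted p = 0.141), Ccl6 at 0.40 (adjusted p = 0.670; 0.99 without saline tumor 2 and 0.00 without mAb-DXd/IMQ tumor 4), Ccl3 at 0.01 (adjusted p = 0.989; 0.39 without saline tumor 1) and Ccl9 at -0.22 (adjusted p = 0.823; 0.39 without saline tumor 2). Cx3cl1, fractalkine, was at -0.32 (adjusted p = 0.503) and at -0.01 without saline tumor 1, so that value rested on 1 tumor.

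Among ligands of Cxcr2, Cxcl1, Cxcl2 and Cxcl5 had the lowest values of the list and Ppbp the highest. Cxcl1 stood at 50.7, 20.2, 43.2 and 132 CPM in saline and at 18.8, 32.5, 19.8 and 31.1 CPM in mAb-DXd/IMQ tumors (-1.27, SE 0.46; adjusted p = 0.167). Cxcl2 was at -1.41 (SE 0.55; adjusted p = 0.205) and Cxcl5 at -1.06 (SE 0.47; adjusted p = 0.260). Each rested in good part on 1 tumor, with Cxcl1 at -0.57 without saline tumor 4, and Cxcl2 at -0.73 and Cxcl5 at -0.71 without saline tumor 1. Cxcl3 was at 0.28 (adjusted p = 0.862; 1.16 without saline tumor 1 and -0.46 without mAb-DXd/IMQ tumor 4) and Ppbp, at 0.357 CPM, at 1.29 (adjusted p = 0.496; 0.41 without mAb-DXd/IMQ tumor 4). Cxcl12, shared by Cxcr4 and Ackr3, stood at 7.22 ± 1.95 CPM in saline and 6.10 ± 0.86 CPM in mAb-DXd/IMQ tumors (-0.24, SE 0.22; adjusted p = 0.595; -0.05 without saline tumor 4).

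**Figure D4:**
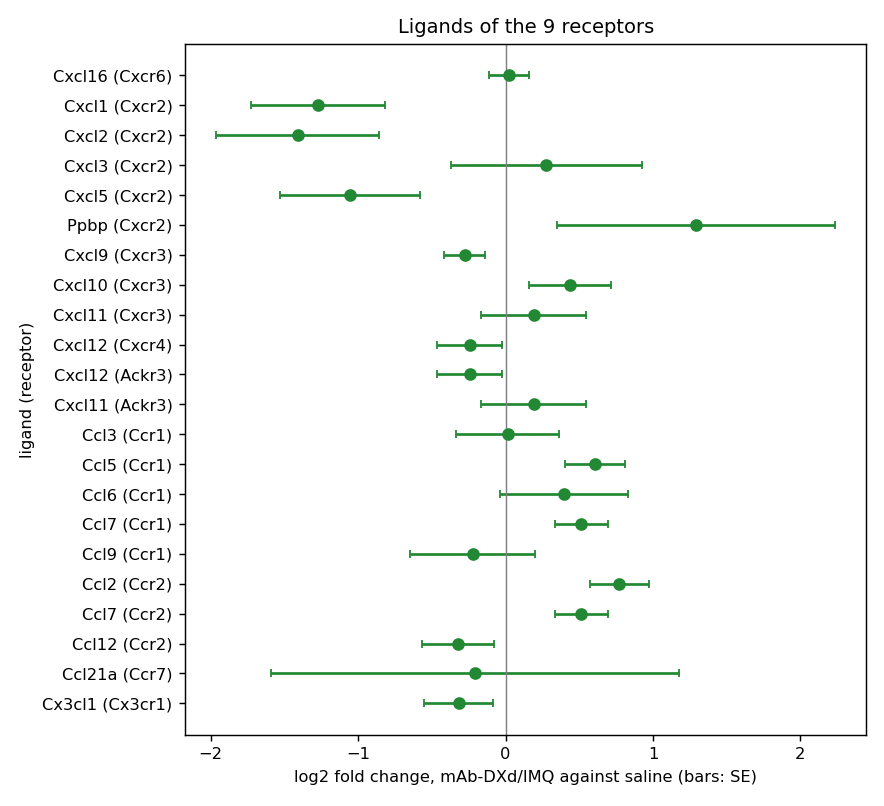
Log2 fold change (mAb-DXd/IMQ against saline) of each tested ligand, with its receptor in brackets and bars giving the SE. Ligands that bind 2 of the receptors appear under each. Cxcl1, Cxcl2 and Cxcl5 lie between -1.41 and -1.06, and Ccl2, Ccl5 and Ccl7 between 0.51 and 0.77.

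Below the receptors, G proteins, kinases, arrestins and exchange factors carry or end the signal. All 22 listed signaling genes were tested, 21 lower and 1 higher, with a median log2 fold change of -0.34. Over all tested genes, 47.4% were lower. By edgeR 0 were past the thresholds. An unadjusted p under 0.05 held for 5 lower and 0 higher genes, beside 18.9% of all tested genes in either direction. DESeq2 put 1 past the thresholds, Prex1, and limma voom 0. Prex1, a Rac exchange factor that responds to G protein beta-gamma subunits, was at -0.72 (SE 0.17; adjusted p = 0.0595), and it passed without saline tumor 1 (-0.83; adjusted p = 0.0435). Its 4 mAb-DXd/IMQ values, 45.5, 55.9, 57.0 and 37.5 CPM, were below the saline values of 62.5, 98.9, 76.7 and 84.4 CPM. Rgs1, which ends G protein signals in activated lymphocytes, was at -1.47 (SE 0.51; adjusted p = 0.157), and at -0.80 without saline tumor 4. The highest values were 0.23 for Rgs16 (adjusted p = 0.641; 0.07 without mAb-DXd/IMQ tumor 3) and -0.01 for Grk6 (adjusted p = 0.973).

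Likeness to other genes was measured as the Pearson r of log2 CPM over the 8 tumors after removing each group's mean, so the difference between groups plays no part. The 3 genes nearest to Cxcr6 were Rpl7l1 (r = 0.986, Spearman rho = 1), Il2rg (0.981, rho = 1), the common gamma chain of interleukin receptors, and Ccdc90b (0.977, rho = 0.952). Nearest to Cxcr3 were Ifi35 (r = 0.995, rho = 0.976), Ubd and Tmem138, of which Ifi35 and Ubd are interferon-induced. Ccr7 was nearest to Btla (r = 0.987, rho = 1), Il12b and Wdr11. Of the myeloid receptors, Cx3cr1 was nearest to the macrophage marker Adgre1 (r = 0.995, rho = 0.976) and to the vessel genes Adgrl4 and Tie1, Ccr2 to the endothelial marker Cdh5 (r = 0.996, rho = 0.976), Tmem273 and Selenop, Ccr1 to Rbm7 (r = 0.993, rho = 0.976), Zfp763 and Clec7a, and Cxcr2 to Junos (r = 0.995, rho = 0.976), Tnip2 and Gm43300. Cxcr4 was nearest to Gpr183 (r = 0.991, rho = 0.905), Rtn1 and Cln8, and Ackr3 to Ero1l (r = 0.976, rho = 0.952), C1ra and Pdk1. With the 2 tumors farthest from the receptor's median left out, r of the 27 pairs stayed between 0.861 and 0.993. These are the highest of many r over 8 values, and with a tumor left out only 6 to 13 of the 27 genes were again among the nearest, so the names describe these tumors and carry no p.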

How the data were processed

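RNA from 8 tumors was extracted with the RNeasy Plus Mini kit, selected with poly-T beads and sequenced at Novogene (Illumina HiSeq X). Counts of reads for each gene were deposited by the authors, with gene lengths. The submitters' processing notes name mm39, HISAT2, HISAT and TopHat2, but the file's coordinates follow GRCm38: of 54532 genes, 54495 are in GENCODE M21 and 53585 have the same start and end there. The counting program and strandedness were not given in the sources used here.

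Receptors, lists and the rule for named genes were chosen with earlier results of these data known. The rule took all receptors, list genes past the thresholds, the 2 highest and 2 lowest of each list with a mean of at least 1 CPM, every tested ligand, the 3 nearest genes and overlapping genes. Not every gene under the rule is named.

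Analyses used R 4.3.3 with edgeR 4.0.16, limma 3.58.1 and DESeq2 1.42.0, and Python 3.11.15. Genes kept by filterByExpr (minimum count 10, total 15) were scaled by TMM (factors 0.939 to 1.07) and tested with edgeR's quasi-likelihood F-test and Benjamini-Hochberg adjustment over 18511 genes. SEs were derived from the F statistic and are approximate. Relative levels used log2 CPM with a prior count of 2. The fits were tested on simulated data. There the share of false calls was above the threshold for all 3 tools and largest for DESeq2, which failed the limit set for this test. That limit was then kept for edgeR and limma voom only. Further simulations with other settings were run and not kept. In those, DESeq2 was again above the threshold, and edgeR and limma voom lay on either side of it. Tumors of a group came from separate mice, and no 2 libraries agreed within sampling noise.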

Additional observations from a re-analysis of the deposited data

Results flagged for a closer look

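Of 150 groups of 4 values, 13 held 1 tumor set apart by Dixon's ratio (gap over range, above its 5% critical value), where chance flags about 1 in 20 groups (7.5 of these). Among the receptors this held for Cxcr4 in mAb-DXd/IMQ tumor 1 (31.0 CPM against 22.3 to 23.5, ratio 0.860) and Ackr3 in saline tumor 1 (66.2 CPM against 36.3 to 41.3, ratio 0.833). Among ligands, mAb-DXd/IMQ tumor 4 was high for Cxcl3 (0.939), Ppbp (0.947) and Cxcl11 (0.863).

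Among markers, mAb-DXd/IMQ tumor 3 was high for Cd68 (0.946), Itgax (0.959) and Ptprc (0.910), tumor 1 of that group low for Csf3r (0.870) and tumor 4 low for Dcn (0.876). In saline tumors, Prf1 was high in tumor 1 (0.898), Nkg7 high in tumor 3 (0.840) and Epcam low in tumor 2 (0.869). No tumor was removed.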

How the results depend on the processing

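With 4 tumors per group and whole-tumor RNA, calls rest on few animals and say nothing of which cells carried the RNA. Fold changes fell with gene length (rho = -0.21, and -0.03 with an offset for length). No receptor changed direction in any setting. The count of genes past the thresholds, 197, was 358 with no filter on low counts, 787 by DESeq2 and 122 with an offset for gene length. On the simulated counts that were kept, the share of false calls was above the threshold for edgeR, limma voom and DESeq2, and largest for DESeq2. Without 1 tumor the count ran from 10 to 203, that of the receptors from 0 to 1, of signaling genes from 0 to 1 and of marker genes (5 with all tumors) from 0 to 7. Other receptors past the thresholds were 2 by DESeq2, ligands 1 with no filter and 1 by DESeq2, and signaling genes 1 and 1 in the same settings. Marker genes were 3 with library totals, 10 with no filter and 16 by DESeq2. Of the 27 nearest genes, 6 to 13 were kept without 1 tumor.

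A replicate block, which pairs tumors of the same number, left 14 genes, 0 receptors and 0 marker genes. Deviations of equally numbered tumors correlated at -0.17, -0.05, 0.08 and -0.07. Tumors of unequal number were not compared in this way, so whether the numbers pair was not tested. Within the replicate block the sign turned for Ccl9 (0.0568), Cd68 (0.00735) and Krt8 (-0.0234).

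Small values turned sign elsewhere too: Cxcl16 (-0.0518), Ccl3 (-0.12), Fscn1 (-0.0425) and Krt8 (-0.0928) with the length offset, Ccl9 (0.0300), Ccl21a (0.53), Cd68 (0.00921) and Krt8 (-0.0289) with limma voom, Grk6 (0.0393) and Cd68 (0.0122) with upper-quartile scaling, and Grk6 (0.0225) with library totals. Taken against the median of the monocyte and macrophage list, the difference was 0.72 for Ccr1 and 0.67 for Ccr2. That median was Mrc1, the gene with the lowest log2 fold change of the list, in 7 of 8 tumors, so this is mostly a comparison with 1 gene and nothing is read from it.

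With 1 tumor left out, log2 fold changes crossed 0 for Cxcl16 (-0.0592 to 0.12), Cxcl3 (-0.46 to 1.16), Cxcl11 (-0.0807 to 0.56), Ccl3 (-0.18 to 0.39), Ccl9 (-0.49 to 0.39), Ccl21a (-0.81 to 1.52), Grk6 (-0.0688 to 0.0336), Il1r2 (-0.31 to 0.11), Cd68 (-0.15 to 0.19), Itgax (-0.12 to 0.29), Fscn1 (-0.0716 to 0.14), Vwf (-0.0530 to 0.31), Pdgfrb (-0.0261 to 0.47), Dcn (-0.42 to 0.0689), Lum (-0.12 to 0.44), Krt8 (-0.17 to 0.13) and Cdh1 (-0.20 to 0.25). Relative levels crossed 0 for Ccr7 against dendritic cell (-0.23 to 0.00377), Cxcr2 against neutrophil (-0.0847 to 0.46), Cx3cr1 against monocyte and macrophage (-0.53 to 0.33), Cxcr4 against pan-leukocyte (-0.25 to 0.11) and Ackr3 against fibroblast (-0.53 to 0.0939).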

Other observations

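Markers of mast cells and B cells were set against none of the 9 receptors. Mast cell markers had 5 of 5 genes tested, all lower, beside 47.4% of all tested genes, with a median log2 fold change of -2.39. Cpa3, a mast cell carboxypeptidase, fell past both thresholds at -2.84 (SE 0.58; edgeR adjusted p = 0.0433), although its groups overlapped, and the call was lost when any tumor but saline tumor 2 was left out (adjusted p from 0.0602 to 0.143). Limma voom did not call it (adjusted p = 0.110) and put 0 mast cell genes past the thresholds, and DESeq2 3. Tpsb2 was at -2.54 (adjusted p = 0.0900; -2.91 and past the thresholds without saline tumor 2, adjusted p = 0.0333), Mcpt4 at -2.21 (adjusted p = 0.167) and Kit at -0.53 (adjusted p = 0.133). The 5 genes, led by Tpsb2, summed to 141, 27.9, 107 and 141 CPM in saline and to 16.8, 37.8, 15.7 and 33.7 CPM in mAb-DXd/IMQ tumors.

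B cell markers were low. All 5 had a mean under 1 CPM, 3 were tested and 0 were past the thresholds by edgeR (1 lower and 1 higher at an unadjusted p under 0.05; 2 by DESeq2 and 0 by limma voom). Of the 3 tested, 2 had groups that did not overlap, 1 lower and 1 higher in mAb-DXd/IMQ tumors. Over all tested genes, 13.1% had groups that did not overlap, in either direction. The sums of the 5 genes lay between 1.24 and 3.07 CPM.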
